A study of Mus musculus with 2 samples.

Results

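The genes described here are 7 transcripts that mark plasmacytoid dendritic cells (pDCs), namely Bst2, Pacsin1, Spib, Ly6d, Klk1, Cox6a2 and Atp1b1, taken as a named list from the 17751 genes counted. They were followed through 20 clusters of single splenic cells to see which were shared by the Sox4+ cDCs of cluster 3 (C3) and which by the cells of cluster 13 (C13). In short, Bst2 was read in all cDC clusters and Spib in most of them, with 0 Spib UMIs in C18. Bst2 was also raised in C3, 4.81-fold in WT and 5.01-fold in Batf3-/- cells over the other cDC clusters pooled. It was not called in C13, and C16 had a level like that of C3. Atp1b1 and Cox6a2 were at least 2-fold above the other cDC clusters pooled in both C3 and C13. Cox6a2 rested on few UMIs, 17 in WT C3 and 71 in C13. In WT cells C1 was above C3 for Atp1b1, and C7 was above C3 for Cox6a2. Pacsin1 passed the 2-fold limit in C13 in both libraries, and Ly6d did so there through few cells, most of them labelled B or stem cell. Klk1 was at or near 0 outside the pDC cluster.

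CITE-seq, which counts the transcripts and the antibody-derived tags of single cells, was carried out on sorted CD11c+ MHCII+ spleen cells of 8-week-old female C57BL/6 (WT) and Batf3-/- mice. The label of both gives C57BL/6 as the strain. WT mice came from a supplier and Batf3-/- mice were bred in house, Batf3 is a transcription factor required for cDC1, and its deletion was not limited to dendritic cells. Spleens of each genotype were pooled and depleted of T and B lymphocytes ahead of sorting, and each genotype was 1 library, so no spread between animals could be had and genotype, supplier and library cannot be told apart. The WT library held 12224 cells with 122530055 UMIs (unique molecular identifiers, 1 per captured transcript) and a median of 8374.5 per cell, and the Batf3-/- library held 12119 cells with 114517073 UMIs and a median of 8516. Batf3 itself was at 206 CPM (UMIs per 1000000 UMIs of the cells summed) in WT and 2.49 CPM in Batf3-/- cells, 56 cell barcodes occurred in both libraries, and no p-value is given because clusters were built from the same transcripts and each genotype had 1 library. Intervals are 95% and cover counting error only.

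pDCs are dendritic cells that sense viral nucleic acid through endosomal Toll-like receptors and release large amounts of type I interferon. Their identity depends on the E protein Tcf4 (E2-2), with the Ets factor SpiB acting beside it, while conventional dendritic cells (cDCs) need low Tcf4 activity and present antigen to T cells. Several pDC transcripts are also made by precursors of dendritic cells, by lymphoid progenitors and by B cells, so that none of them alone tells a pDC from its neighbours.

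All 7 genes were located in GRCm38 with the GENCODE M21 annotation. Spib lies on the reverse strand at chr7:44525993-44532071, Klk1 on the forward strand at chr7:44225360-44229618, and Cox6a2 on the reverse strand at chr7:128205435-128206387, inside the span of Itgad, which is read from the opposite strand. Bst2 lies at chr8:71534255-71537456, Ly6d at chr15:74762056-74763620 and Atp1b1 at chr1:164437109-164458355, all on the reverse strand, and Pacsin1 on the forward strand at chr17:27655509-27711482. Atp1b1 overlaps Nme7 and Klk1 overlaps Gm10109, in each case on the opposite strand. Whether counting used strand was not given in the sources used here, so reads of such pairs may not be told apart.

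Promoters of 5 of the 7 genes (all but Ly6d and Cox6a2) were matched in the RefSeq sequences of GRCm38.p6. The 250 bases before the start of 3 of them are shown because these genes differed most in how they were shared: Bst2 and Atp1b1 were raised in C3, and Klk1 was not. Capitals mark CACCTG (or CAGGTG, its other strand), an E box of the kind E proteins bind, and the letters GAAA, any 2 bases and GAAA again, the core of an interferon-stimulated response element.
Bst2, chr8:71537473-71537722, reverse strand: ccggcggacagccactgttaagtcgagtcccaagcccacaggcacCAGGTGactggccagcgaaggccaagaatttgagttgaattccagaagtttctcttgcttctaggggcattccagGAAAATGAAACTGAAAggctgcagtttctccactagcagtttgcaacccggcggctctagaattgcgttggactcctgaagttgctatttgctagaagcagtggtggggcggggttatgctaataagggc
Atp1b1, chr1:164458356-164458605, reverse strand: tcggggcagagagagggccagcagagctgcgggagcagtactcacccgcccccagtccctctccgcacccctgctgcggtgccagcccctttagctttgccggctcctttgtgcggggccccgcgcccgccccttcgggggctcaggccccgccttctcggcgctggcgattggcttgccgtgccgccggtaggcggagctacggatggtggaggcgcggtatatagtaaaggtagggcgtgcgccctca
Klk1, chr7:44225110-44225359, forward strand: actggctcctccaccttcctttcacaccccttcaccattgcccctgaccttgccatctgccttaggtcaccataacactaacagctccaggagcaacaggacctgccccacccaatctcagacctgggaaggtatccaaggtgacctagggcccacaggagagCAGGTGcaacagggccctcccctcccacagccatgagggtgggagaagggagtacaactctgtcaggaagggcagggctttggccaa
On either strand, CACCTG occurred in 2 of the 5 promoters (Bst2 and Klk1) and in 17.2% of 32851 promoters of the same length. The interferon element occurred in the Bst2 promoter, as 2 overlapping copies, and in 2.98% of all promoters. The E box CAGCTG and the Ets-type letters GAGGAA occurred in 0 of the 5, against 13% and 23.3% of all promoters. A match describes letters in this window and nothing more.

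In C14, the cells called pDCs, all 7 genes reached their highest level of any cluster. Bst2, which encodes tetherin (PDCA-1), a surface protein that holds budding virus to the cell, was at 3837 CPM in WT and 3928 CPM in Batf3-/- pDCs. Ly6d, a GPI-anchored surface protein also known from lymphoid progenitors, was at 3946 and 4004 CPM. Klk1, a tissue kallikrein protease, was at 1100 and 1020 CPM. The libraries lay close together for these 3 genes. Cox6a2, the heart and muscle form of a cytochrome c oxidase subunit, was at 806 and 660 CPM. Atp1b1, the beta 1 subunit of the sodium and potassium pump, was at 532 and 692 CPM. Spib stood at 224 and 216 CPM and Pacsin1, an adaptor of membrane curvature and endocytosis, at 191 and 204 CPM. All 7 were called in C14, meaning at least 2-fold above the 14 cDC clusters other than C3 in both libraries, where 8.95% of all genes tested were called in that direction. The 7 were listed as pDC genes and C14 was named for its pDC genes, so this count is not independent evidence. The share of the 255 C14 cells with a UMI ran from 80.8% for Spib to 100% for Bst2. Cluster numbers and cell labels are those deposited by the authors, and C14 also carried the other pDC markers, with Siglech at 2015 CPM and Tcf4 at 1420 CPM.

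**Figure D1:**
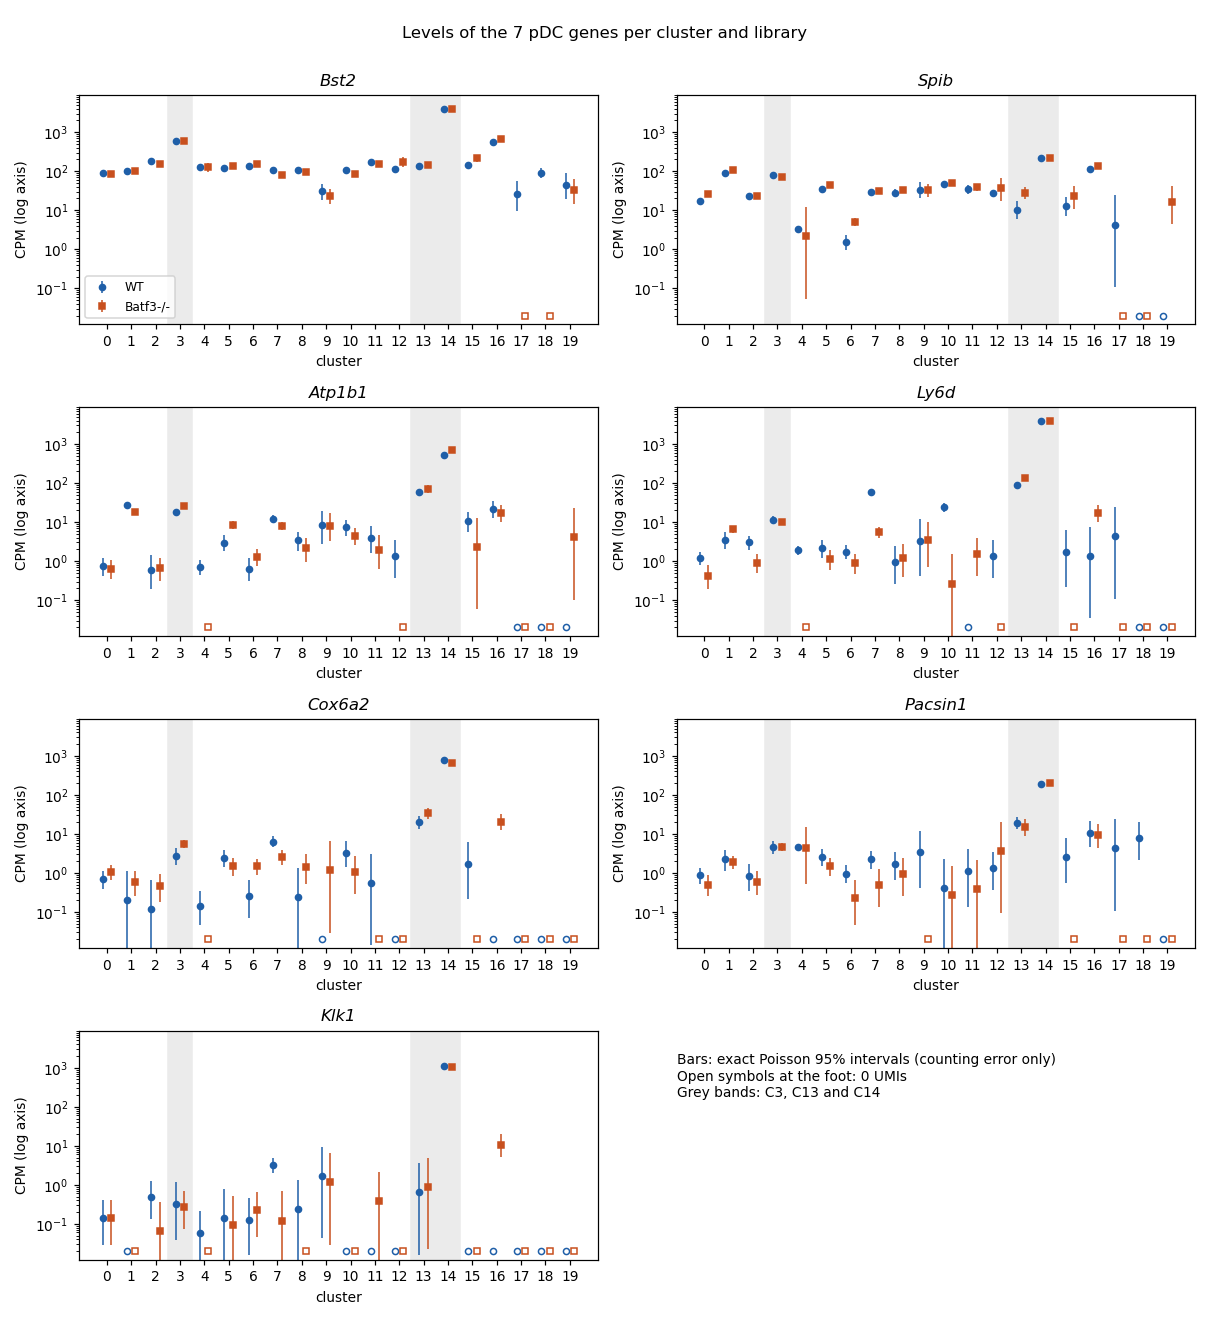
Level of each pDC gene in CPM (y axis, log scale) in clusters 0 to 19 (x axis), with circles for WT, squares for Batf3-/-, bars for exact Poisson 95% intervals, open symbols for 0 UMIs and grey bands for C3, C13 and C14. C14 is highest for all 7 genes; Bst2 and Spib stay above 3 CPM in most other clusters, whereas Klk1 lies below 6 CPM everywhere else when both libraries are summed.

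The order of the clusters below C14 differed from gene to gene. For Bst2, with both libraries summed, C16 (610 CPM) and C3 (582 CPM) followed and had overlapping intervals, and C2 was next at 165 CPM. For Spib the order was C16 (127 CPM), C1 (102 CPM), C3 (75.1 CPM) and C10 (48.1 CPM), each clear of the one after it. C1 is the Il4i1+ cDC2 cluster, and the transcript of this pDC factor was thus higher there than in Sox4+ cDCs. For Atp1b1, C13 (64.0 CPM) came next to pDCs, then C3 (23.7 CPM), C1 (20.4 CPM) and C16 (19.1 CPM), and these 3 had overlapping intervals in the sum, although C1 was higher in WT cells (27.8 against 18.1 CPM in C3) and C3 in Batf3-/- cells (25.9 against 17.8 CPM). For Ly6d the order was C13 (108 CPM), C7 (29.6 CPM) and then C3 (10.4 CPM), C16 (10.2 CPM) and C10 (9.63 CPM), the last 3 with overlapping intervals. That order held in neither library alone: in WT cells C7 was at 59.9, C10 at 24.0, C3 at 11.3 and C16 at 1.35 CPM, and in Batf3-/- cells C16 was at 17.2, C3 at 9.96, C7 at 5.45 and C10 at 0.265 CPM. Cox6a2 followed the order C13 (26.3 CPM), C16 (11.4 CPM), C3 (4.78 CPM) and C7 (4.24 CPM), with C3 and C7 overlapping in the sum, although C7 was higher in WT cells (6.37 against 2.75 CPM) and C3 in Batf3-/- cells (5.61 against 2.54 CPM). Pacsin1 was at 17.4 CPM in C13, 10.2 CPM in C16 and 7.73 CPM in C18, all 3 with overlapping neighbours, and C3 (4.73 CPM) could not be told from C4, the immature cDC1 cluster, at 4.68 CPM. Klk1 was at 5.98 CPM in C16 and 1.48 CPM in C7 and at 0.281 CPM, or 6 UMIs in 2245 cells, in C3.

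The C16 values need their cells beside them. In C16, 1 Batf3-/- cell of 22084 UMIs held 16 of the 17 Ly6d UMIs, and the 19 Cox6a2 and 10 Klk1 UMIs were all in that cell too. Bst2 and Spib in C16 were spread over both libraries, at 548 and 112 CPM in WT and 660 and 138 CPM in Batf3-/- cells. Called genes in C16 were Bst2, Spib, Atp1b1 and Pacsin1, against 9.29% of all genes, and in C1 they were Spib and Atp1b1, against 7.78%. C1 is itself 1 of the 14 clusters pooled, so its folds are understated.

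Sox4+ cDCs (C3; 704 WT and 1541 Batf3-/- cells) carried their label gene, with Sox4 at 562 CPM against 58.9 CPM in the other cDC clusters, and carried Bst2 and Spib at a steady level in both genotypes. Bst2 was at 582 CPM in WT C3 and 583 CPM in Batf3-/- C3, against 121 and 116 CPM in the other cDC clusters, log2 fold changes of 2.27 (2.21 to 2.32) and 2.32 (2.28 to 2.36). Spib was at 80.0 CPM in WT C3 and 73.1 CPM in Batf3-/- C3, against 17.8 and 38.0 CPM, so its fold over the other cDC clusters was 4.49 in WT and 1.92 in Batf3-/- cells. Levels in C3 itself were close between the libraries, and the gap arose in the comparator. C4, where Spib was at 3.26 CPM, held 2202 WT cells and 31 Batf3-/- cells. C1, where it was at 102 CPM, held 721 WT and 1845 Batf3-/- cells. Spib was also higher in Batf3-/- than in WT cells within C0 (25.3 and 17.4 CPM), C1, C5 and C6, with intervals clear of 0. In the other comparator clusters the intervals held 0 or could not be had. The part of each in the gap was not tested.

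Of the 5 genes that were scarce outside pDCs, Atp1b1 was the most evenly raised in C3, at 18.1 CPM in WT and 25.9 CPM in Batf3-/- cells against 3.08 and 5.01 CPM, log2 fold changes of 2.56 (2.24 to 2.87) and 2.37 (2.17 to 2.57). Cox6a2 was at 2.75 CPM (17 UMIs) in WT C3 and 5.61 CPM (85 UMIs) in Batf3-/- C3 against 0.854 and 1.11 CPM, log2 fold changes of 1.69 (0.85 to 2.44) and 2.34 (1.91 to 2.76). Ly6d was at 11.3 CPM in WT C3 and 9.96 CPM in Batf3-/- C3 against 5.75 and 2.04 CPM, which is 1.97-fold in WT and 4.88-fold in Batf3-/-. Ly6d therefore missed the 2-fold limit in WT by little, and so did Pacsin1. For Ly6d this rested on few comparator cells: of its 639 WT comparator UMIs, 387 lay in 6 cells of C7, 3 of them marked as doublets. Without cells that had 3 or more of the 5 genes, Ly6d was 5.46-fold in WT C3 and was called. Pacsin1 was at 4.70 CPM (29 UMIs) in WT C3 and 4.75 CPM (72 UMIs) in Batf3-/- C3 against 2.39 and 0.816 CPM, folds of 1.96 and 5.82. C4, largely a WT cluster, again differed, with Pacsin1 at 4.68 CPM against the 0.687 CPM of C0. Klk1 had 2 UMIs in WT C3 and 4 in Batf3-/- C3, with log2 fold changes of 0.04 (-3.06 to 2.00) and 1.20 (-0.91 to 2.95), so that its level in C3 could not be told from that in other cDCs at this depth.

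Bst2, Atp1b1 and Cox6a2, 3 of the 7, were thus called higher in C3 and 0 were called lower, against a background of 3.72% of 14229 genes called higher and 7.08% called lower. The median log2 fold change of the 7 was 1.69 in WT and 2.32 in Batf3-/- cells, beside 0.04 and -0.01 over all genes tested. Another 3 genes were within 0.1 of the limit on the log2 scale in 1 library, Spib in Batf3-/- and Ly6d and Pacsin1 in WT cells. The number called was 6 with C0, an immature cDC2 cluster, as the sole comparator, and 2 at a 4-fold limit. It was 6 without Scrublet doublets, where Ly6d (3.56-fold in WT C3), Pacsin1 and Klk1 were added and Spib was not. Set against pDCs, C3 was 6.65-fold lower for Bst2, 2.94-fold for Spib, 25.2-fold for Atp1b1, 41.5-fold for Pacsin1, 156-fold for Cox6a2 and 383-fold for Ly6d, and 3798-fold for Klk1.

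**Figure D2:**
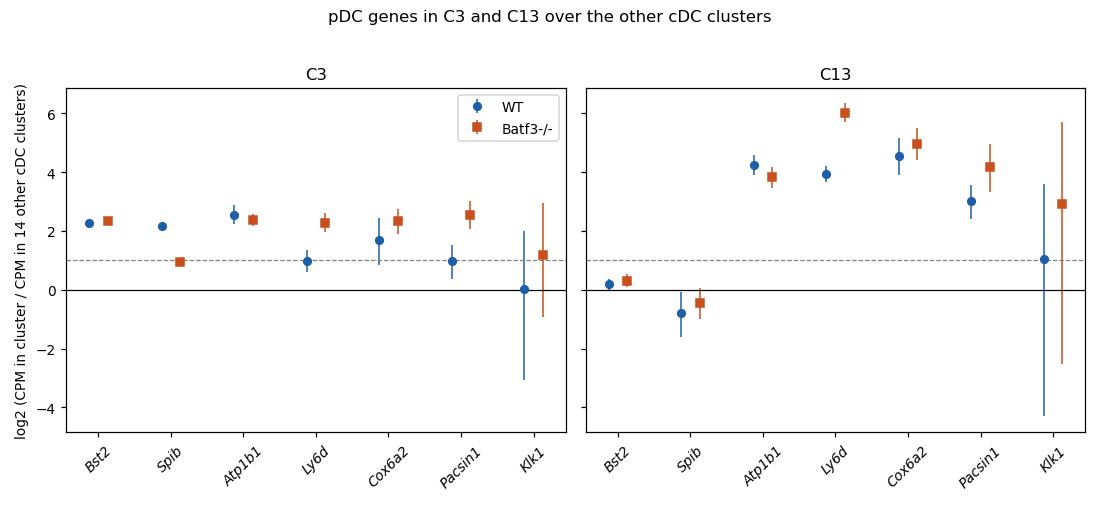
Log2 ratio of CPM in C3 (left) or C13 (right) to CPM in the 14 other cDC clusters (y axis) for the 7 genes (x axis), circles WT, squares Batf3-/-, bars 95% intervals of counting error, dashed line 2-fold. In C3 all but Klk1 lie above 0.9, while in C13 Bst2 and Spib lie near or below 0 and Atp1b1, Ly6d, Cox6a2 and Pacsin1 lie above 3.

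Within C3 the pDC genes were uneven from cell to cell and followed Siglech, which encodes a pDC lectin receptor and was not 1 of the 7. The 2245 C3 cells were grouped by their Siglech UMIs, with 1323 cells at 0, 388 at 1, 205 at 2 and 329 at 3 or more. Over these groups Bst2 was at 416, 589, 722 and 1082 CPM. Atp1b1 was at 8.85, 22.7, 25.8 and 76.5 CPM, and Ly6d at 3.01, 7.63, 9.08 and 40.7 CPM. Bst2 thus stood higher at every step of Siglech in both libraries, while the steps from 1 to 2 UMIs for Atp1b1 and Ly6d lay within counting error, and Ly6d in WT cells was at 5.17, 9.08, 5.70 and 36.1 CPM. The log2 ratio of the cells with 3 or more Siglech UMIs to those with 0 was 3.76 (3.22 to 4.33) for Ly6d, 3.11 (2.78 to 3.45) for Atp1b1, 2.15 (1.46 to 2.86) for Pacsin1 and 1.38 (1.32 to 1.44) for Bst2. Spib differed least, at 70.9, 70.7, 82.2 and 90.9 CPM, a log2 ratio of 0.36 (0.16 to 0.55). Cox6a2 was at 2.92, 3.82, 11.5 and 8.37 CPM, and in WT cells its log2 ratio of 0.44 (-1.71 to 2.28) could not be told from 0.

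For the cells with 3 or more Siglech UMIs against those with 0, both libraries gave the same direction, with log2 ratios in WT and Batf3-/- cells of 3.75 and 3.00 for Atp1b1, 2.81 and 4.29 for Ly6d, and 2.19 and 2.15 for Pacsin1. Deeper cells can hold more UMIs of any gene, and CPM takes the depth of each group into account, so these values compare levels and not detection. When the same cells were grouped by Cd33, a Siglec receptor shared by pDCs and Sox4+ cDCs, the ratio for Bst2 was 1.20, for Pacsin1 1.25 and for Spib 0.15 (-0.00 to 0.30), and for Cox6a2 it was -0.18 (-0.87 to 0.46). Grouped by Ccr2, a chemokine receptor of monocytes and dendritic cell precursors, Bst2 gave 1.72, Pacsin1 1.43 and Spib 0.08 (-0.06 to 0.23). With both libraries summed, Spib thus had the ratio nearest to 0 of the 6 genes in each of the 3 groupings, though Cox6a2 was nearer to 0 for Siglech in WT and for Cd33 in Batf3-/- cells, whereas Bst2, Pacsin1, Atp1b1 and Ly6d were higher with each gene (Atp1b1 0.55 for Cd33 and 0.98 for Ccr2, Ly6d 0.97 and 0.90). The Ly6d values were 2.20 and 2.82 in WT cells but 0.40 (-0.10 to 0.89) and 0.15 (-0.34 to 0.63) in Batf3-/- cells, where both intervals held 0.

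**Figure D3:**
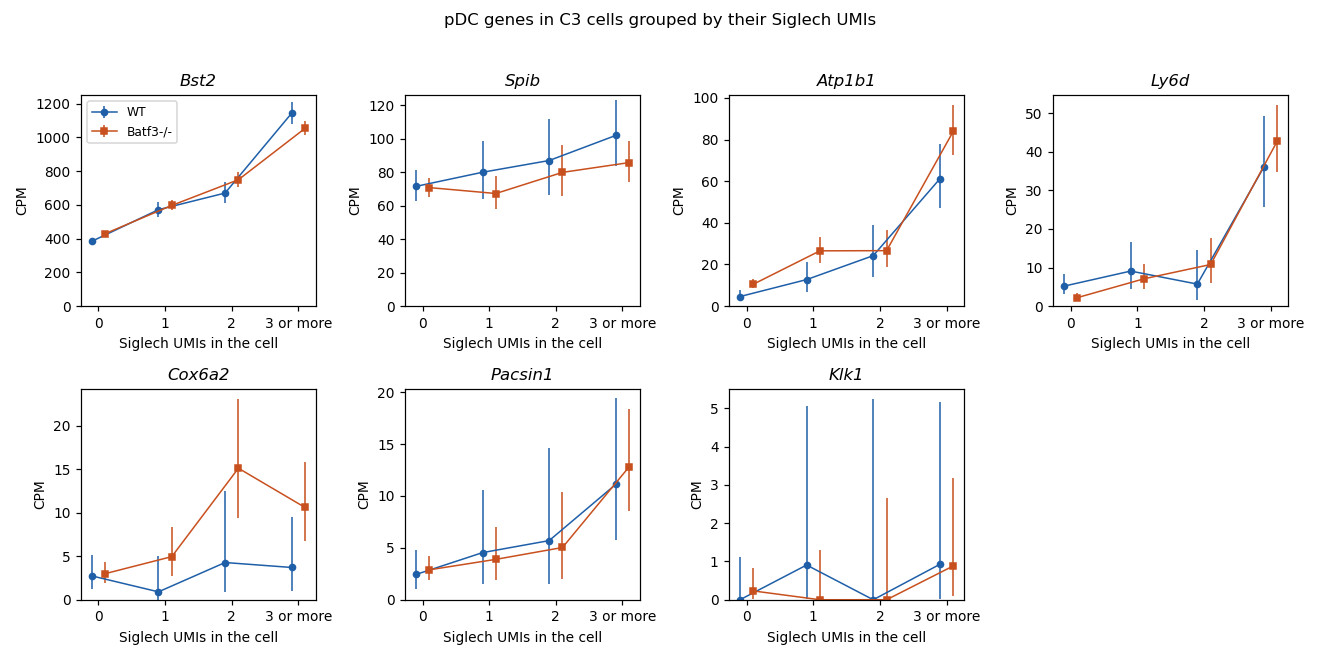
CPM of each gene (y axis, from 0) in C3 cells with 0, 1, 2 or 3 or more Siglech UMIs (x axis), circles WT, squares Batf3-/-, bars exact Poisson 95% intervals. Bst2, Atp1b1 and Ly6d are highest in the right-hand group, where they reach 1082, 76.5 and 40.7 CPM with both libraries summed, and Spib stays between 70.7 and 90.9 CPM in the same sum.

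Ly6d in C3 came from few cells. A Ly6d UMI was found in 78 of the 2245 cells (3.47%), and 16 cells with 3 or more held 152 of its 221 UMIs. Of those 16 cells, 14 had Siglech, 16 had Tcf4, 12 had Atp1b1, 5 had Pacsin1, 2 had Cox6a2 and 1 had Klk1. The deposited labels called 15 of them DC and 1 of them a B cell, the latter with 24 Cd79a UMIs. Cd79b, a B cell receptor chain read at 53.8 CPM in pDCs and 86.7 CPM in C3 as a whole, was present in 10, and Scrublet marked 0 of the 16 as doublets. B cell markers summed to 118 CPM in WT C3 and 106 CPM in Batf3-/- C3, against 62.2 and 80.7 CPM in C0, with 4 of 9 at 0 in WT C3. Most of the C3 sum was Cd79b. With both libraries summed, Cd79b and Cd79a were higher in C3 than in C0, and Ms4a1 and Blk were lower. Against the other cDC clusters, 0 of the 8 B cell markers tested were called higher in C3 and 1, Blk, was called lower. Of all genes, 3.72% were called higher and 7.08% lower, so a count of 0 of 8 is near that share. Cd79b missed the 2-fold limit by little, at log2 fold changes of 2.19 in WT and 0.986 in Batf3-/- C3. The part of B cell markers in the Ly6d level was not tested.

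C13 (241 WT and 146 Batf3-/- cells) shared another set of pDC genes. Ly6d was at 89.1 CPM in WT C13 and 133 CPM in Batf3-/- C13, log2 fold changes of 3.95 (3.68 to 4.22) and 6.02 (5.71 to 6.34) over the cDC clusters. Atp1b1 was at 58.8 and 71.2 CPM, with log2 fold changes of 4.26 (3.91 to 4.59) and 3.83 (3.47 to 4.17). Cox6a2 was at 20.01 CPM (31 UMIs) and 34.7 CPM (40 UMIs), with log2 fold changes of 4.55 and 4.97. All 3 were thus raised more in C13 than in C3, and Pacsin1 was too, at 19.4 CPM (30 UMIs) and 14.8 CPM (17 UMIs), with log2 fold changes of 3.02 and 4.18. Bst2 was near the cDC level, at 138 CPM in WT and 144 CPM in Batf3-/- C13, log2 fold changes of 0.18 (-0.02 to 0.38) and 0.31 (0.08 to 0.53). Spib was at 10.3 CPM (16 UMIs) and 27.8 CPM (32 UMIs), log2 fold changes of -0.79 (-1.60 to -0.08) and -0.45 (-1.003 to 0.047), and its Batf3-/- level was 1.10-fold that of C0 alone. Klk1 had 1 UMI in each library, and although its log2 fold changes of 1.04 (-4.31 to 3.61) and 2.91 (-2.51 to 5.70) put it past the limit, both intervals cover 0.

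With Klk1 counted, 5 of the 7 were called higher in C13, against 9.18% of 14236 genes, and the median log2 fold change was 3.02 in WT and 3.83 in Batf3-/- cells beside 0.19 and 0.16 over all genes. C13 was picked for its high score of pDC genes in these data, so this count is not independent evidence. Atp1b1 and Cox6a2 were the genes called in both C3 and C13, while Bst2 was called in C3 and not in C13.

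By its markers C13 was a mixed cluster in which those of NK and T cells were high. NK cell markers summed to 3603 CPM in WT C13 and 3437 CPM in Batf3-/- C13, against 9.63 and 9.69 CPM in C0, with 0 of 8 at 0 in C13. T cell markers summed to 1458 and 967 CPM, against 20.9 and 20.6 CPM in C0, and Siglech was at 2.59 CPM. Markers of cDC1 summed to 500 and 191 CPM in C13, against 80.0 and 49.0 CPM in C0. Those of cDC2 summed to 279 and 393 CPM, against 716 and 658 CPM in C0. H2-Aa, an MHC class II gene, was at 3198 CPM in C13 and 8216 CPM in C0. Plasma cell markers summed to 5116 CPM in WT C13 and 81.6 CPM in Batf3-/- C13, against 56.7 and 52.4 CPM in C0, and 7537 UMIs of Jchain, the joining chain of secreted antibody, lay in C13; their part in the pDC genes was not tested. The deposited labels called 86 of the 387 cells ILC, 82 NK, 79 DC, 75 T, 29 NKT, 19 Tgd, 10 B cells, 6 monocytes and 1 a stem cell. These labels come from a comparison of each cell with reference profiles and can be wrong for single cells.

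Atp1b1 was highest in the cells labelled NK, at 198 CPM (155 to 248), and was at 63.3 CPM in those labelled T and 31.7 CPM in those labelled DC. Cox6a2 was highest in the cells labelled ILC, at 65.3 CPM (46.7 to 88.9) from 40 UMIs in 7 cells, with 21.8 CPM in DC and 0 UMIs in T cells. Pacsin1 was at 47.5 CPM (26.6 to 78.3) in the cells labelled T, 17.96 CPM in ILC, 12.9 CPM in DC and 2.71 CPM (1 UMI) in NK. Atp1b1, Cox6a2 and Pacsin1 therefore each peaked under a different lymphoid label. Spib was read mostly in the cells labelled DC, at 30.7 CPM, 31 of its 48 UMIs, and had 0 UMIs in T, NKT and Tgd cells. Bst2 was read under all labels, from 73.1 CPM in NK to 251 CPM in B cells among labels of 2 or more cells, and both Klk1 UMIs lay in cells labelled DC.

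Ly6d in C13 sat in 16 cells. The 10 cells labelled B held 138 of its 291 UMIs, a level of 2312 CPM, and the 1 cell labelled a stem cell held 73. A further 48 UMIs were in 2 cells labelled ILC, 47 of them in 1 cell, 31 in 3 cells labelled DC and 1 in a cell labelled NKT. All 153 Ly6d UMIs of the Batf3-/- library were in cells labelled B or stem cell. Cd79a, the B cell receptor chain, was present in all 10 cells labelled B with 102 UMIs, and 12 of the 14 C13 cells with 3 or more Ly6d UMIs had it, although B cells had been depleted ahead of sorting. Without the cells labelled B or stem cell, a setting added after these values were seen, Ly6d was at 80 UMIs in WT C13 and 0 in Batf3-/- C13, its call was lost and 4 genes were left. Its WT fold was then 11.1, beside 15.5 with all cells, so the call was lost through the Batf3-/- library. Scrublet marked 41 of the 241 WT and 4 of the 146 Batf3-/- cells of C13 as doublets.

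**Figure D4:**
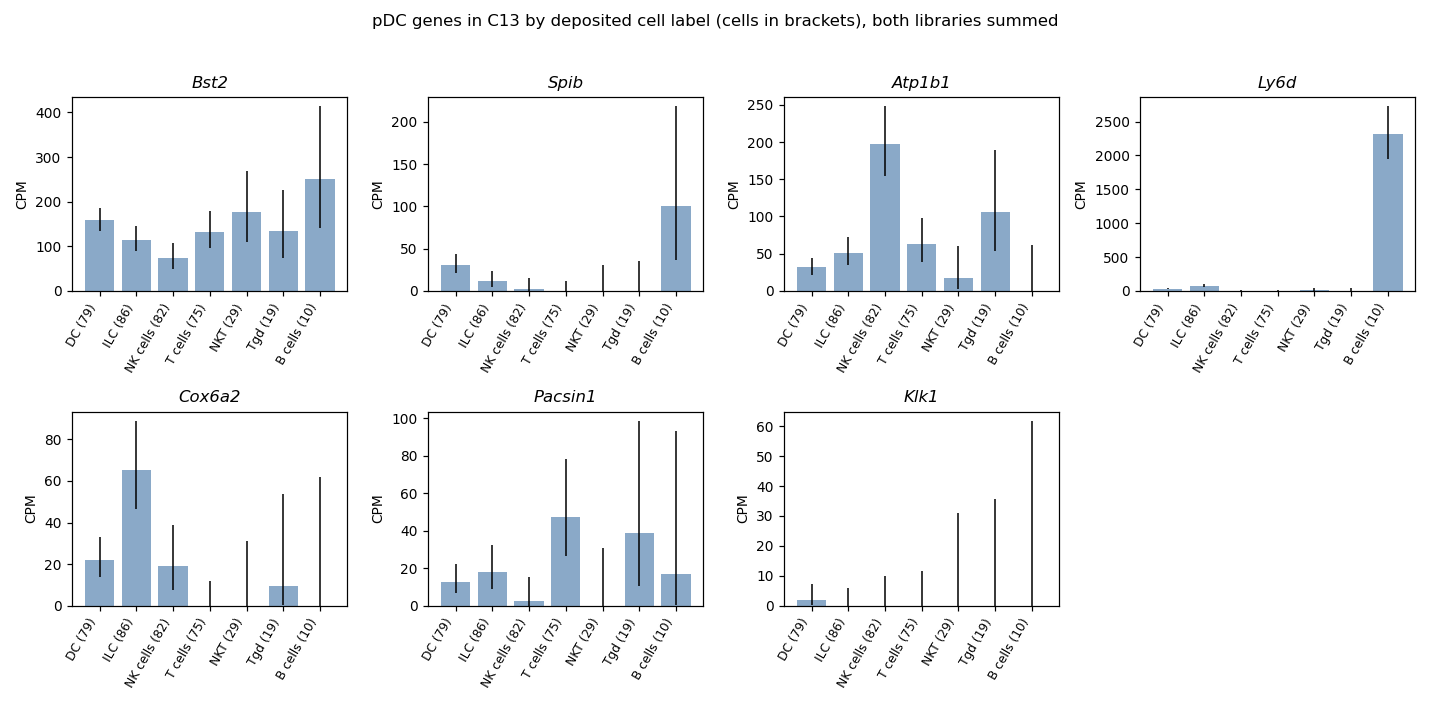
CPM of each gene (bars from 0, y axis) in C13 cells by deposited cell label (x axis, number of cells in brackets), both libraries summed, with exact Poisson 95% intervals. Atp1b1 is highest under NK (198 CPM), Cox6a2 under ILC (65.3 CPM), Pacsin1 under T (47.5 CPM) and Ly6d under B cells (2312 CPM).

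Whether the genes met in the same cell was asked for the 5 scarce ones, Pacsin1, Ly6d, Klk1, Cox6a2 and Atp1b1. Cells were thinned to 1000 UMIs so that clusters of unlike depth could be set side by side. At this depth a UMI of at least 1 of the 5 was found in 98.4% of pDCs, 13.2% of C13 cells (51 of 387) and 3.47% of C3 cells (78 of 2245), against 0.294% in C0 and 0.448% in C4, 2 cDC clusters taken for comparison. C4 is no cluster without these genes, since Pacsin1 made up 63.0% of its UMIs of the 5. C1, C5, C7 and C9 lay between, at 1.83%, 1.28%, 1.42% and 1.51%. C16 was at 2.38% (0.494 to 6.80; 3 of 126 cells), which could not be told from C3, and at 19.05% unthinned. Unthinned, the shares were 100%, 42.6%, 18.4%, 2.17% and 7.48%, at median depths of 8796, 5094, 9158, 6871 and 15382 UMIs. C3 and C13 thus stood above C0 and C4 with and without thinning. UMIs of 2 or more of the 5 genes were found after thinning in 82.4% of pDCs, in 6 C3 cells (0.267%; 0.0981 to 0.581) and in 2 C13 cells (0.517%; 0.0626 to 1.85), and in 0 cells of C0 and C4. C7 had 4 such cells (0.380%; 0.104 to 0.970), so that C3, C7 and C13 were not separable, and C2 and C11 had 1 each. For C0 the count of 0 allows a share of up to 0.0489% by 3 counts, with a Clopper-Pearson bound of 0.0602%. Without thinning, the shares with 2 or more were 3.39% in C3 and 7.24% in C13. Scarce pDC genes in C3 and C13 were hence mostly seen 1 at a time, whereas 253 of the 255 pDCs had 3 or more. Transcripts at low levels are seldom read together in 1 cell, so this contrast follows their levels. Joint detection beyond that was not tested. In C3, 11 cells (2 WT and 9 Batf3-/-) had 3 or more of the 5 without thinning. All 11 had Siglech, their median depth of 8916 UMIs was near the 9158 of the cluster, and 1 was marked as a doublet. In C13, 2 cells had 3 or more, at a median depth of 16635.5 UMIs.

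Of single genes after thinning, Atp1b1 was seen in 2.18% of C3 and 7.24% of C13 cells against 0.0653% in C0 and 0.0896% in C4. Ly6d was seen in 0.713% of C3 and 3.10% of C13 cells against 0.0489% and 0.0448%. Pacsin1 was seen in 0.535% (0.276 to 0.932) of C3 cells and in 0.314% (0.126 to 0.645) of C4 cells, so C3 was not separable from C4 for this gene, whereas C13 was at 2.07% (0.897 to 4.03). Klk1 was seen in 0 thinned cells of C3, C4 and C13.

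Of all UMIs of the 5 genes, Atp1b1 made up 54.0% in C3 and 9.06% in pDCs, Ly6d 23.6% and 60.4%, and Klk1 0.642% and 16.2%. Atp1b1 thus made up more, and Ly6d and Klk1 less, of these UMIs in Sox4+ cDCs than in pDCs. The part of free RNA in these counts was not tested.

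Between the genotypes the pDC genes of C14 and C3 were alike within a factor of 2, with a single exception. In pDCs the log2 ratio of Batf3-/- to WT ran from -0.29 (Cox6a2) to 0.38 (Atp1b1), 0 of the 7 passed 2-fold against 4.68% of 8142 genes, and the intervals of those 2 genes alone excluded 0. In C3 the ratio was 0.00 (-0.06 to 0.06) for Bst2, -0.13 (-0.28 to 0.03) for Spib, -0.19 (-0.61 to 0.24) for Ly6d and 0.02 (-0.63 to 0.69) for Pacsin1. Atp1b1 was higher in Batf3-/- C3 by 0.51 (0.21 to 0.83). Cox6a2 was the exception, at 1.03 (0.26 to 1.87), so that 1 of the 6 genes with enough UMIs passed 2-fold against 2.11% of 10999 genes. It rested on 17 and 85 UMIs and was lost without the 11 cells that had 3 or more of the 5 genes. In C13 Spib passed, at 1.43 (0.52 to 2.39) from 16 and 32 UMIs, 1 of 6 against 4.33% of 8666 genes, while Ly6d was at 0.58 (0.23 to 0.92), Cox6a2 at 0.79 (0.08 to 1.52) and Atp1b1 at 0.28 (-0.17 to 0.72). The Ly6d ratio turned to -4.30, a bound set by 0 Batf3-/- UMIs, without the cells labelled B or stem cell.

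Outside C3 and C13 some ratios rested on few cells. In the proliferating cluster C7, Ly6d was at 59.9 CPM (395 UMIs) in WT and 5.45 CPM (45 UMIs) in Batf3-/- cells, a log2 ratio of -3.46 (-3.94 to -3.01). In C7, 7 cells, 6 of them WT, held 420 of the 440 Ly6d UMIs, 179 of them in 1 cell, and 3 of the 7 were marked as doublets, 6 had Siglech and all 7 had Atp1b1. Klk1 in C7 was at 21 UMIs in WT and 1 in Batf3-/- cells, and Cox6a2 at 42 and 21. Thus 3 of the 6 genes tested passed 2-fold in C7, against 1.88% of 10690 genes. In C10, another cluster of cycling cells, Ly6d had 59 UMIs in WT and 1 in Batf3-/- cells (log2 ratio -6.50, 1 of 4 genes tested, against 2.19% of 9517), and 4 WT cells held 56 of those 60 UMIs. The others past 2-fold were Atp1b1 in C5 at 1.496 (21 and 90 UMIs, against 2.28% of all genes), Spib in C6 at 1.72 (24 and 68 UMIs) and Cox6a2 in C6 at 2.54 (4 and 20 UMIs, against 8.36%). Ly6d was past it in C0 at -1.53 (26 and 9 UMIs, against 2.47%) and in C2 at -1.72 (25 and 14 UMIs, against 2.36%). The part of doublets and of few Siglech+ cells in these ratios was not tested.

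**Figure D5:**
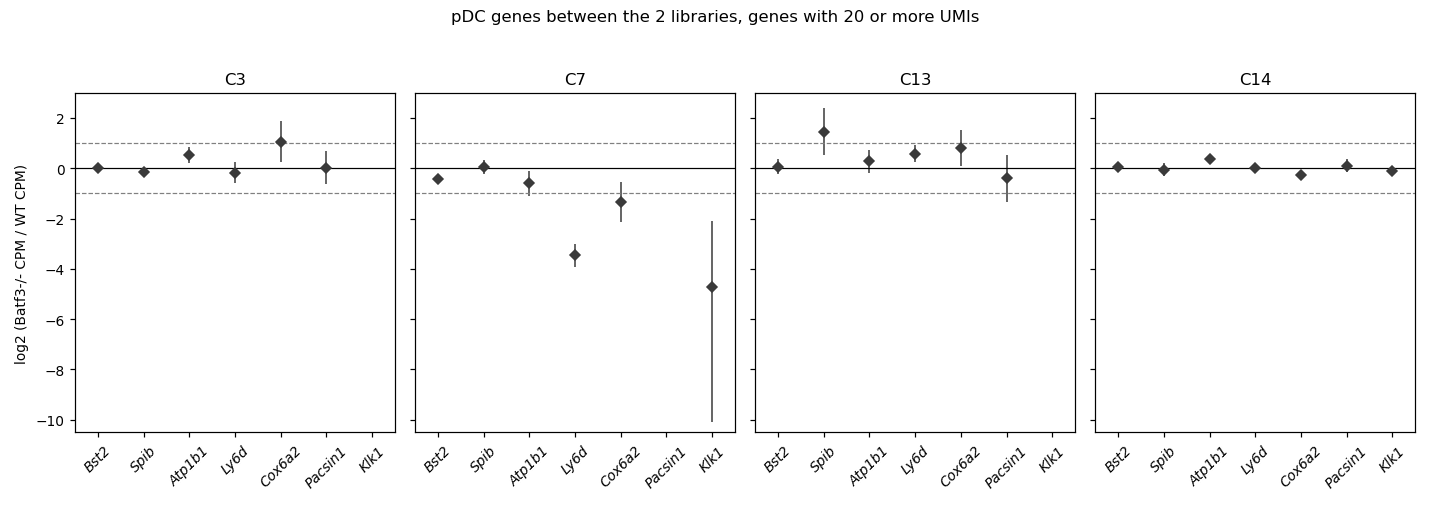
Log2 ratio of Batf3-/- to WT CPM (y axis) for the pDC genes with 20 or more UMIs (x axis) in C3, C7, C13 and C14, diamonds with 95% intervals of counting error and dashed lines at 2-fold. Values in C14 and C3 lie within 2-fold apart from Cox6a2 in C3 (1.03), Spib lies above the upper line in C13 (1.43), and in C7 Ly6d (-3.46), Cox6a2 (-1.33) and Klk1 (-4.72) lie below the lower line.

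The other genes of the pDC programme were counted in C3 by the same rule, beside the 3.72% of all genes called higher and the 7.08% called lower there. Of 10 pDC surface proteins 9 were called higher, 0 lower, with a median log2 fold change of 3.85 in WT and 3.14 in Batf3-/- cells. Siglech, Cd33, Cd209d and Lag3 of this list are genes the study found in C3, so the count is not independent evidence of its direction. Siglech led with Cd209d, a C-type lectin, at 5.23 and 4.75 for Siglech and 6.14 and 5.22 for Cd209d, and Lair1, an inhibitory collagen receptor, was not called (0.07 and -0.32). Of 7 transcription factors of pDCs 3 were higher and 1 lower. Those that were higher are genes the study itself found in C3, so their count is not independent evidence. Tcf4, the pDC master regulator, was at 2.78 and 2.60, Runx2 at 1.97 and 1.51 and Bcl11a at 1.18 and 1.01. Irf8, which cDC1 and pDCs both require, was lower, at 66.0 CPM in C3 against 593 CPM in the other cDC clusters and 2974 CPM in pDCs. That direction depends on the comparator: the pool is carried by cDC1 clusters such as C4 (1963 CPM) and C6 (1454 CPM), and Irf8 in C3 stood above C0 (18.4 CPM), C5 (31.2 CPM) and C7 (47.2 CPM).

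A list of Toll-like receptors and genes of nucleic acid sensing gave 0 higher and 2 lower of 8, and Tlr7 was at 0.08 and -0.32. The 2 were Tlr12, a Toll-like receptor, and Pld4, an endosomal nuclease. The list is wider than nucleic acid sensing, since Tlr12 is in it. Tlr12 depends on the comparator as Irf8 does, at 2.25 CPM in C3 against 39.8 CPM in C4 and 0.709 CPM in C0. Interferon-stimulated genes gave 0 higher and 9 lower of 12, with Rsad2, Ifit3 and Ifit2 lowest, and summed to 221 CPM in WT and 213 CPM in Batf3-/- C3 against 714 and 591 CPM in C0. Against C4 alone the genes called lower were split. Isg15 (31.7 CPM in C3 and 52.8 CPM in C4), Mx1 (10.7 and 39.5 CPM), Ifit2, Rsad2 and Ifi44 were again lower in C3. Ifit1 and Ifit3 were close, while Rtp4 was at 11.9 CPM in C3 and 4.85 CPM in C4, and Oasl2 at 8.44 and 3.84 CPM. Bst2, itself an interferon-stimulated gene, was higher in C3. In a published pDC signature of 86 genes that the study used, 58 were tested, 31 were higher and 0 lower. Sit1, Pdzd4 and Cdh1 stood highest and Fam169b, St3gal6 and Pkig lowest, and the signature includes Klk1 and Pacsin1. In C13, where 9.18% of all genes were called higher, 0 of the 7 transcription factors and 2 of the 10 surface proteins (Ly6c2 and Lag3) were. In either list 1 gene was called lower in C13, and the list with nucleic acid sensing gave 0 higher and 2 lower of 8. The share of all genes called lower in C13 was not counted, so the lower counts there have no background beside them. With lists of 7 and 8 genes, a count of 0 higher is also close to the 9.18% of all genes. Of the signature, 28 of 59 genes were higher in C13 and 1 lower. The median log2 fold change was 2.14 in WT and 1.78 in Batf3-/- cells, beside 1.62 and 1.20 in C3. C13 was picked for its high score of pDC genes in these data, so its signature count is not independent evidence.

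Relatives of the members showed whether a gene stood for its family. Cox6a1, the form of the subunit found in most tissues, was at 211 CPM in C3 and 226 CPM in pDCs, with log2 fold changes of -0.21 and -0.11 in C3, so it did not follow Cox6a2. Atp1b3, another beta subunit of the pump, was called in C13 (1.61 and 1.90) and not in C3. Pacsin2 was at -0.21 and -0.11 in C3. Among Ly6 genes, Ly6a was higher in C3 (1.87 and 2.10) and C13 (2.38 and 2.88), while Ly6k was called in C3 alone. Of the Ets relatives of Spib, Spi1 (PU.1) was at 0.17 and 0.06 in C3 and Spic was lower. Klk1b27, a close copy of Klk1, was at 170 CPM in pDCs, and reads of such near-identical kallikreins may have been split between them.

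The members were compared by their levels over the 20 clusters, on a log2 scale with 10 CPM added, as a description over points that share libraries. Pearson's r among Pacsin1, Ly6d, Klk1, Cox6a2 and Atp1b1 lay between 0.86 and 0.98. These genes were grouped as scarce outside C14, and 10 CPM was added to every level. Their r therefore rests largely on the C14 value and was set by that choice. Spib, read in most cDC clusters, had lower r, from 0.48 (Pacsin1) to 0.69 (Atp1b1). Among 5716 other genes, those nearest to Ly6d, Cox6a2 and Pacsin1 were the same 3, Mctp2, Tmem163 and Gm30211, at r from 0.95 to 0.99. Bst2 was nearest to Il11ra1 (0.92), Tmem221 (0.91) and Pdzd4 (0.88), and Spib to Gpm6b (0.91), Runx2 (0.89) and Ift57 (0.84). Atp1b1 was nearest to Prkca, Tmem163 and Cmah (0.93 to 0.94) and Klk1 to Ccdc162, Sh3bgr and Hs3st1, all near 1.00. For genes read almost only in C14, such r rests on that cluster in the same way. Of these, Gpm6b was at 101 CPM in C3 and 160 CPM in pDCs, and Ift57 at 56.7 CPM in C3 and 41.9 CPM in pDCs. Mctp2 was at 148 CPM in pDCs, 25.5 CPM in C13 and 0.281 CPM in C3.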

How the data were processed

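Transcripts were counted by CITE-seq in spleen cells sorted for CD11c and MHCII, as 1 WT and 1 Batf3-/- library. The authors aligned reads to GRCm38 with Cell Ranger (bcl2fastq 2.2.0 before it), evened depth between libraries and filtered and clustered cells in Seurat 3.0.5. The deposited tables hold raw counts of UMIs per gene and cell. For every cell the authors also gave the fraction of UMIs on mitochondrial and on ribosomal genes. Cell totals equalled the deposited totals for 24343 of 24343 cells. Antibody tags were not used here.

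UMIs were summed per cluster (resolution 0.5) and library and given as CPM with exact Poisson intervals. Ratios had exact binomial intervals, and shares of cells had Clopper-Pearson intervals after thinning to 1000 UMIs. C1, C3, C13, C14 and C16 were each set against C0, C1, C2, C4 to C12, C17 and C18 pooled; for C1 the pool holds its own cells. A gene was called at 2-fold or more in both libraries with at least 20 UMIs over both sides, and a side at 0 took a floor of 3 counts. No test was run, with 1 library per genotype. Scrublet (scanpy 1.11.5, expected rate 0.1) marked 541 WT cells (4.43%) and 244 Batf3-/- cells (2.01%) as doublets; they were kept, and left out as an alternative, and cells whose barcode occurs in both libraries were kept. Scripts were tested on simulated data. Python 3.11.15, numpy 2.4.6, scipy 1.17.1 and pandas 2.3.3 were used.

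The 7 genes, C13, the gene lists and the alternatives were chosen with earlier results of these data known. Genes named outside the 7 were the highest 3 or lowest 3 of a list, family relatives, defining markers and, for each member, the 3 genes of highest r among those with 50 CPM or more in at least 1 cluster. Genes that results turned on (Lair1, Tlr7, Irf8, Cd79a, Cd79b) were named after their values were seen.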

Additional observations from a re-analysis of the deposited data

Results flagged for a closer look

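The ratio of Cox6a2 between the libraries pointed in opposite directions in different clusters. The log2 ratio of Batf3-/- to WT was 1.03 in C3 (17 UMIs in WT, 85 in Batf3-/-) and 2.54 in C6 (4 and 20 UMIs), and -1.33 in C7 (42 and 21 UMIs). In C6, 9 of the UMIs were in 1 cell. The difference between these ratios was not tested, since each genotype was 1 library.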

How the results depend on the processing

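The number of pDC genes called higher in C3, 3 in the report, was 5 when mitochondrial and ribosomal UMIs were left out of the totals, 6 without Scrublet doublets, 6 with C0 alone as comparator and 6 at a 1.5-fold limit. At a 4-fold limit it was 2. Bst2, Atp1b1 and Cox6a2 were called under each comparator, total and choice of cells, and Klk1 was called in C3 without doublets. The number called in C13 stayed at 4 or 5. The number past 2-fold between the libraries in C3, 1 in the report, was 0 with the mean of per-cell CPM, 0 without cells that had 3 or more of the 5 scarce genes and 0 at 4-fold. In C13, also 1, it was 2 with the mean of per-cell CPM, 3 without doublets, 2 at 1.5-fold, 0 at 4-fold, 0 at a minimum of 100 UMIs and 2 without cells labelled B or stem cell, the last setting chosen after the data were seen. The share of C3 cells with 2 or more of the 5 genes, 0.267% at 1000 UMIs, was 0.624% at 2000, 1.88% at 5000 and 3.39% unthinned, and that of C13, 0.517%, was 5.05% at 5000, where 189 of the 387 cells were too shallow and left out, and 7.24% unthinned. The ratio of Ly6d between the libraries in C13, 0.58, turned to -4.30 without cells labelled B or stem cell, a bound set by 0 UMIs in Batf3-/- cells. Of the values of single genes, 166 moved by less than their counting interval and 30 by more.

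No paired analysis was possible because each genotype was 1 library, and the libraries share only a replicate number. Leaving out a replicate would leave no comparison. Depth limits Klk1 in C3 (6 UMIs) and C13 (2 UMIs) and the ratios of Cox6a2 and Pacsin1, and intervals leave out the spread between animals.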
